A study of Macaca mulatta with 4 samples.

Results

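The cadherin and protocadherin genes of the fetal rhesus macaque cerebellum were taken as every gene of the deposited annotation whose symbol was CDH followed by digits alone, or began with PCDH. The rule gave 43 of 30807 genes, 23 of them CDH genes and 20 of them PCDH genes. Frozen cerebellar hemispheres of 4 fetuses each gave 1 library of single-nucleus RNA. The 2 Control fetuses, 1 female and 1 male, had no intervention and were at 130 days of gestation. The 2 LPS fetuses were taken 5 days after 1 mg of lipopolysaccharide, a bacterial wall component that provokes inflammation, went into the amniotic fluid, and the female was at 131 days and the male at 133 days. The Control fetuses received no injection of saline, so the injection and LPS cannot be told apart. Both LPS fetuses were also older than both Control fetuses, so age and LPS cannot be told apart either.

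Cadherins are calcium-dependent adhesion proteins that span the cell membrane. The classical ones, of type I (such as CDH2) and type II (such as CDH8), bind cadherins on the next cell and reach the actin skeleton through catenins. Protocadherins are their larger relatives, of which the delta group acts in cell sorting and axon growth, and the clustered alpha, beta and gamma genes give neurons varied surface identities. In the developing cerebellum, granule cells leave the outer layer along the fibers of Bergmann glia, and adhesion of this kind accompanies each step.

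The deposited values were counts of unique molecular identifiers (UMIs) per gene and barcode. A library held 34282015 to 61665690 UMIs, and barcodes with at least 500 genes gave 6890 to 9250 nuclei. The libraries stood apart by pairs: the median nucleus held 4508 and 4063 UMIs in the female control and the female LPS fetus against 1882 and 2308.5 in the male control and the male LPS fetus, and the mitochondrial share was 0.224% and 0.198% against 0.0196% and 0.0250%. The male LPS library also stood apart by itself, with 38.7% of its UMIs in nuclei, against 58.7 to 73.9% in the other libraries. Its droplets without a nucleus held a median of 496 UMIs, against 196 to 300 in the others. Any pair of libraries shared 16 to 21 barcodes. Nuclei were clustered without the 43 genes and named from marker lists, which gave 14 classes, and the granule lineage gave 8 clusters, with 7 further nuclei left out of them. A cluster of 2485 nuclei, 1904 of them from the male LPS fetus, and one of 770 nuclei stayed without a name and enter no class. Below, a level is in counts per 1000000 UMIs (CPM) of a class in a library, given as mean ± SD over the 4 libraries. UMIs were not divided by gene length, so 1 gene is compared between classes and no gene with another. In such sums, fewer nuclei of a kind within a class and less RNA per nucleus cannot be told apart.

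Of the 43 genes, 27 reached a mean of 50 CPM in a class or granule cluster: 2 of 5 type I genes, 12 of 13 type II genes, 3 of 5 other CDH genes, 1 of 3 delta-1 genes, 4 of 5 delta-2 genes, both of the other single PCDH genes and 3 of 10 clustered genes. Of the other 16, CDH16 and PCDHB1 had no UMI in any class and the rest stayed at or below 46.6 CPM. Classes and levels come from the same nuclei, so the levels by class are a description without a test. For 19 of the 27 genes, the class with the highest mean stood above the second in each of the 4 libraries.

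**Figure D1:**
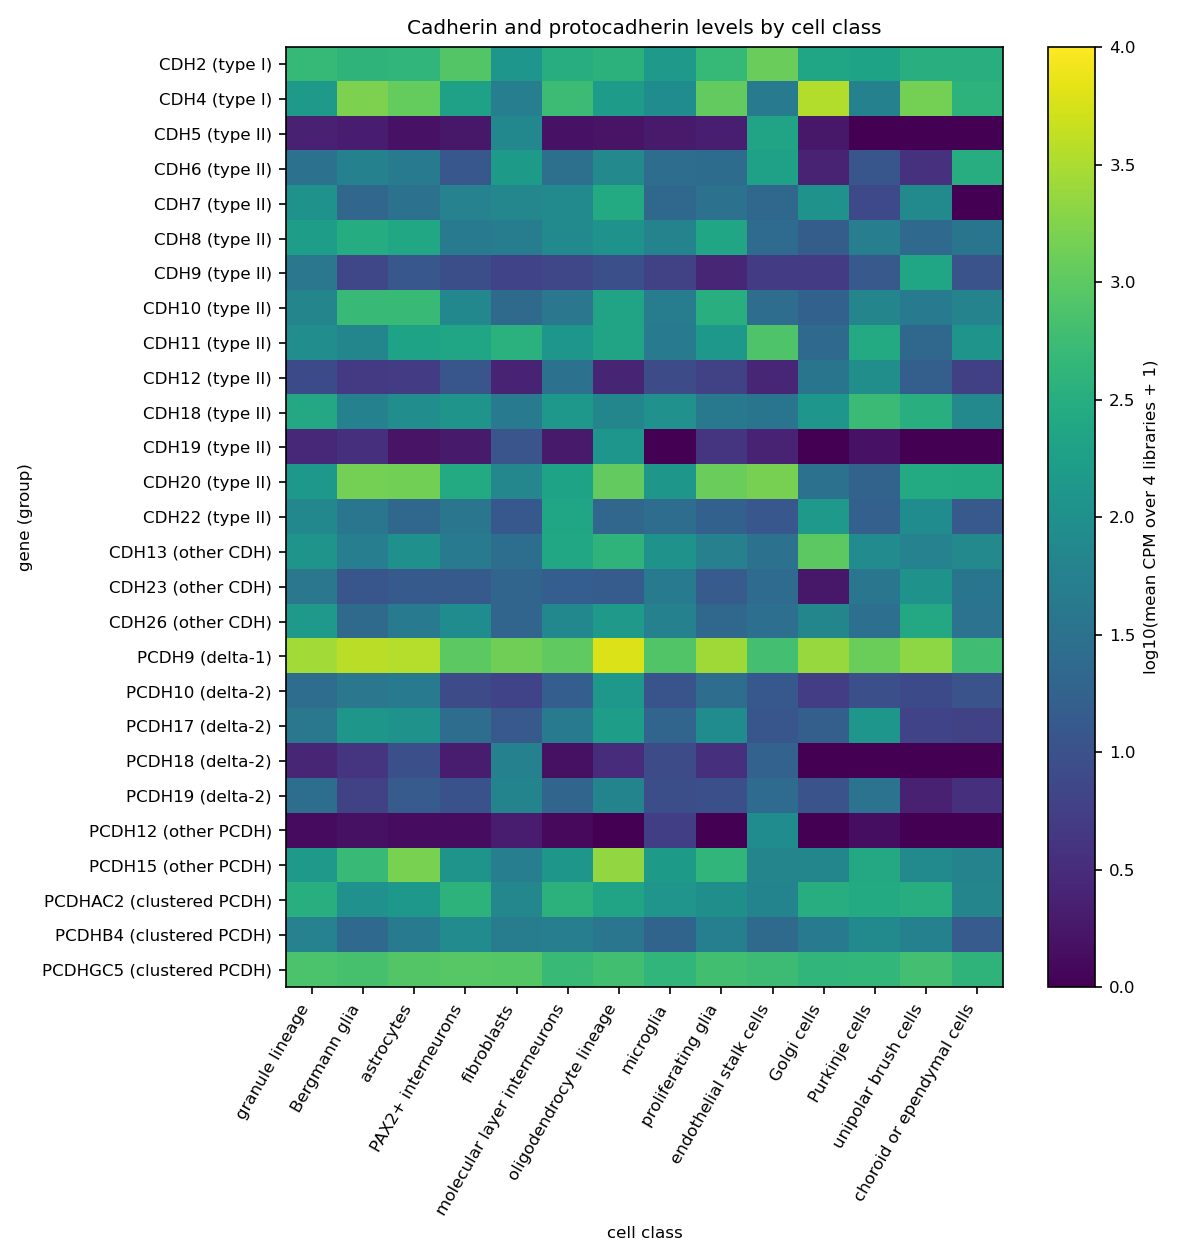
Level of the 27 genes that reached 50 CPM (rows, with their group) in the 14 cell classes (columns), colored by log10 of the mean CPM over the 4 libraries plus 1. CDH19 and PCDH12 are bright in 1 class each, while PCDHGC5 and CDH2 have UMIs in every class and stand at 579 and 532 CPM in empty droplets.

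Among the type I genes, CDH4 (R-cadherin) was highest in Golgi cells, inhibitory neurons of the granular layer, at 3451 ± 2261 CPM. Its level there was 1579 and 5725 CPM in the female and male control and 1437 and 5063 CPM in the female and male LPS fetus, so both males stood above both females. Bergmann glia held 1651 ± 710.3 CPM and endothelial stalk cells, the lowest class, 44.8 ± 35.7 CPM. With each nucleus thinned to 1000 UMIs, 64.8 to 100% of Golgi nuclei in a library held a CDH4 UMI, against 0 to 5.26% of endothelial stalk nuclei. CDH2 (N-cadherin) ranged from 124 ± 41.7 CPM in fibroblasts to 1204 ± 369 CPM in endothelial stalk cells. Droplets without a nucleus, which hold free RNA, had a mean of 532 CPM of CDH2, above 12 of the 14 classes, all but endothelial stalk cells and PAX2+ interneurons. The markers of mural cells, which wrap small vessels, were also raised in that endothelial cluster, with a mean log2 fold of 4.60 against 5.94 for the endothelial list, and their part in its levels was not tested.

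Several type II genes were high in glia. CDH20 was at 1520.3 ± 309 CPM in endothelial stalk cells and 1468 ± 316 CPM in Bergmann glia, and each of these classes was the higher in 2 of the 4 libraries. CDH10 was at 513 ± 225 CPM in astrocytes and 506 ± 222 CPM in Bergmann glia, again with each ahead in 2 libraries. CDH8 was highest in Bergmann glia at 301 ± 114 CPM, above the astrocytes in all 4 libraries. The oligodendrocyte lineage led in CDH7, at 274 ± 124 CPM, and in CDH19, a cadherin known from glia, at 127 ± 48.0 CPM, where the second class, fibroblasts, held 10.2 ± 12.8 CPM. At 1000 UMIs, 7.61 to 14.5% of oligodendrocyte-lineage nuclei held a CDH19 UMI, against 0.141 to 0.297% of granule nuclei.

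In vessels and coverings, CDH5 (VE-cadherin), the cadherin of endothelial junctions, was at 219.7 ± 66.1 CPM in endothelial stalk cells and 72.9 ± 30.3 CPM in fibroblasts. CDH11, a cadherin of connective tissue, was at 795 ± 175 CPM and 352 ± 117 CPM in the same classes. CDH6 had its highest mean in choroid or ependymal cells, 312 ± 173 CPM, which rests on 2 and 3 nuclei in the Control libraries.

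Neurons led in the remaining named type II genes. CDH18 was at 528 ± 204 CPM and CDH12 at 94.3 ± 52.3 CPM in Purkinje cells, the output neurons of the cerebellar cortex. CDH22 was highest in molecular layer interneurons at 234 ± 78.4 CPM, above Golgi cells in each library. CDH9 was at 227 ± 120.3 CPM in unipolar brush cells, excitatory interneurons of the granular layer, a class of 76 nuclei with 37.6 ± 15.4 CPM in the next class, the granule lineage.

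Of the other CDH genes, CDH13, which is held in the membrane by a lipid anchor and lacks the part that binds catenins, was highest in Golgi cells at 969 ± 382 CPM and was at 396 ± 49.1 CPM in the oligodendrocyte lineage. CDH26 and CDH23, a part of the tip link of hair cells in the ear, were highest in unipolar brush cells, at 263 ± 65.1 and 114 ± 74.1 CPM.

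Among the protocadherins, the delta-1 gene PCDH9 took 44.1% of the UMIs of all 43 genes. This is a share of UMIs not divided by gene length, and does not rank its expression against other genes. PCDH9 was at 6197 ± 1857 CPM in the oligodendrocyte lineage and 3853 ± 1742 CPM in Bergmann glia. The delta-2 genes PCDH17 and PCDH10 also led in the oligodendrocyte lineage, at 171 ± 105 and 135 ± 45.7 CPM. PCDH19 was nearly level between fibroblasts (63.1 ± 14.9 CPM) and the oligodendrocyte lineage (62.5 ± 29.5 CPM), each ahead in 2 libraries, and PCDH18 was highest in fibroblasts at 56.3 ± 16.4 CPM.

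PCDH15, the partner of CDH23 in the tip link, was at 2243 ± 904 CPM in the oligodendrocyte lineage and 1543 ± 564 CPM in astrocytes. At 1000 UMIs it was found in 48.8 to 77.4% of oligodendrocyte-lineage nuclei and 2.70 to 4.55% of fibroblast nuclei. PCDH12, a protocadherin of endothelium, was at 86.6 ± 34.6 CPM in endothelial stalk cells, and no other class passed 4.55 CPM.

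Among the clustered genes, PCDHGC5 ranged from 400.2 CPM in choroid or ependymal cells to 909.6 ± 193 CPM in PAX2+ interneurons, the precursors of inhibitory interneurons, with fibroblasts close at 875 ± 131 CPM. PCDHAC2 was nearly level between PAX2+ interneurons (387 ± 43.7 CPM) and molecular layer interneurons (371 ± 55.1 CPM), and PCDHB4 between PAX2+ interneurons (85.2 ± 20.4 CPM) and Purkinje cells (79.9 ± 34.4 CPM), each class ahead in 2 libraries. The alpha isoforms share their last exons, as do the gamma isoforms, so UMIs read from the 3′ end cannot be split with certainty between PCDHAC2, PCDHGC5 and the other isoforms of their clusters.

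Free RNA was measured in empty droplets. For all 27 genes that reached 50 CPM, the lowest class was below the droplets and the highest class above them. A droplet level is the make-up of free RNA and does not give the amount of it in a nucleus. As a caution, a level at or below the droplets is not read as expression, and the part of free RNA in it was not tested. PCDH8, PCDHB14 and CDH1 had a higher mean there, 26.9, 46.6 and 7.35 CPM, than in any class, and nothing is read from their levels by class. PCDH9 was at 2624, 2442, 1210.2 and 4493 CPM in the empty droplets of the female control, male control, female LPS fetus and male LPS fetus, and at 519, 524, 576 and 1689 CPM in microglia.

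Within the oligodendrocyte lineage, 6 clusters were made without the 43 genes. Cluster 1, of 182 nuclei, held PDGFRA, the receptor that marks oligodendrocyte precursors, at 1314 ± 122 CPM. Cluster 4, of 60 nuclei, held BCAS1, a gene of newly forming oligodendrocytes, at 9507 ± 1721 CPM, against 7313 ± 3114 CPM in cluster 3, which was the higher in the female LPS fetus. Clusters 3 and 2, of 65 and 85 nuclei, held MBP, the myelin basic protein, at 13032 ± 7089.7 and 15538 ± 3177 CPM. Cluster 6, of 35 nuclei, held the division gene TOP2A at 683 ± 298 CPM. Cluster 5, of 52 nuclei, held the neuronal gene KCNIP4 at 4983 ± 1121 CPM, and 32 of its nuclei, like 58 of those of cluster 2, came from the male LPS fetus.

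PCDH15 was at 4422 ± 1131 CPM in the PDGFRA cluster, 3288 ± 970.1 CPM in cluster 4, and 437 ± 108 and 194 ± 198 CPM in clusters 3 and 2. The libraries ranged from 3335 to 5755 CPM in cluster 1 and from 32.1 to 458 CPM in cluster 2, without overlap. CDH13 took the same course, with 790.1 ± 52.6, 349 ± 78.4, 80.4 ± 36.8 and 66.9 ± 53.1 CPM in clusters 1, 4, 3 and 2. CDH10 went from 443 ± 116 CPM in cluster 1 to 35.6 ± 38.0 and 70.2 ± 60.9 CPM in clusters 3 and 2.

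CDH7 ran the other way, at 14.1 ± 11.2 CPM in the PDGFRA cluster, 892 ± 425 CPM in cluster 3 and 462 ± 237 CPM in cluster 2. Its libraries ranged from 6.09 to 30.6 CPM in cluster 1 and from 442 to 1413 CPM in cluster 3. PCDH9 was highest in cluster 2 at 13269 ± 4053 CPM, against 4192 ± 1425 CPM in cluster 1, and CDH19 in cluster 4 at 367 ± 152 CPM.

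**Figure D2:**
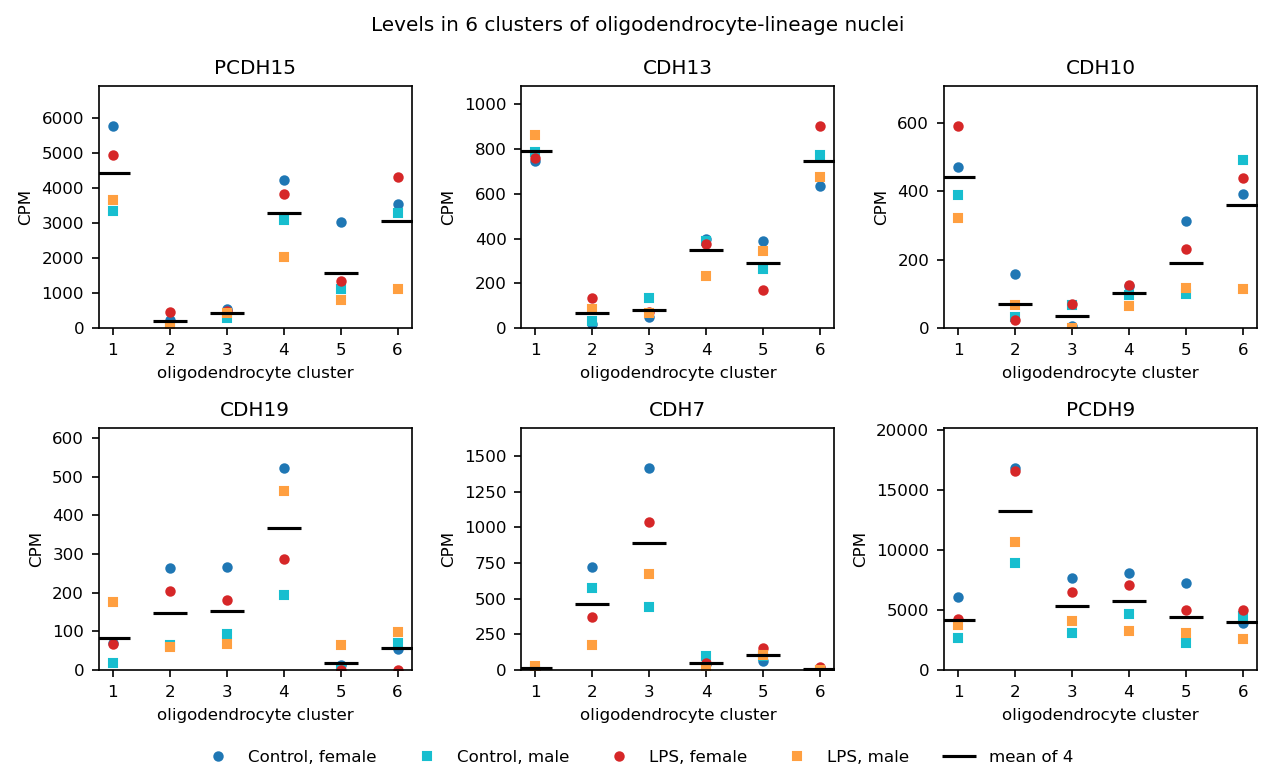
Level in CPM (vertical axes, from 0) of 6 genes in the 6 oligodendrocyte-lineage clusters (horizontal axes), with circles for females, squares for males and a black bar for the mean of the 4 libraries. PCDH15, CDH13 and CDH10 are low and CDH7 is high in clusters 2 and 3, while CDH19 has its highest mean in cluster 4.

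The 8 granule clusters were named from stage lists and leading genes: proliferating precursors (DIAPH3), committing (COMP), 2 migrating (RASGEF1B and GALNT14), 2 maturing (IL20RB and CHRM3), a cluster led by NELL1 without a stage name, and mature (TMEM132D). Clusters of 1 stage name have no order between them. The mature cluster drew 1437 of its 2423 nuclei from the male LPS fetus. Of the 27 genes, 13 had their highest mean in the NELL1 or the mature cluster, and for 9 the highest cluster was the same in all 4 libraries. The share over all genes was not computed, so the 13 are not read as a trait of these genes.

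CDH20 was highest in precursors, with 886 and 320.5 CPM in the female and male control and 1149 and 538 CPM in the female and male LPS fetus. In the NELL1 cluster it was at 16.1, 52.8, 15.5 and 39.6 CPM in the same order, below the precursors in every library. At 1000 UMIs, 22.5 to 56.8% of precursors and 1.59 to 5.87% of NELL1 nuclei held a CDH20 UMI. Empty droplets held 155, 456, 121 and 297 CPM of CDH20 in the same order of libraries, more than the precursors in the male control. Among the precursors, 14.1% of nuclei were called doublets.

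CDH4, PCDH15 and CDH23 had their highest mean in the committing cluster, at 323 ± 277, 253 ± 147 and 81.4 ± 48.6 CPM, which held in 3, 3 and 2 of the 4 libraries. Empty droplets held means of 113, 236 and 10.6 CPM of these genes, so the PCDH15 level is close to that of the droplets. PCDHGC5 was highest in the RASGEF1B cluster in each library, at 1054 ± 176 CPM, and lowest in mature nuclei at 590.2 ± 150.5 CPM. PCDHAC2 went from 181 ± 13.1 CPM in precursors to 433 ± 70.6 CPM in the GALNT14 cluster, and CDH2 varied little, from 435 ± 119.8 to 569.7 ± 186 CPM. Empty droplets held means of 242 CPM of PCDHAC2 and 532 CPM of CDH2, so the CDH2 levels are about that of the droplets. The part of free RNA in them was not tested. CDH6 was highest in the CHRM3 cluster in each library, with 99.1 and 31.6 CPM in the female and male control and 57.6 and 108 CPM in the female and male LPS fetus, and was at 4.63 ± 5.42 CPM in the committing cluster.

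A larger group was low in committing or migrating nuclei and high in the NELL1 or the mature cluster. The NELL1 cluster scored highest on the list of later granule cells, with a mean log2 fold of 3.18, and next on the mature list, at 2.11. It stayed without a stage name because its leading genes held more of another list than of its own. PCDH9 was at 357 ± 262 CPM in the RASGEF1B cluster and 5075 ± 2454 CPM in the NELL1 cluster. CDH8 was at 8.21 ± 3.27 CPM in the GALNT14 cluster and 362 ± 150.4 CPM in the NELL1 cluster, and CDH11 at 23.0 ± 9.42 CPM in the RASGEF1B cluster and 183 ± 63.9 CPM in the NELL1 cluster. CDH18 was at 43.5 ± 29.5 CPM in committing and 449 ± 179.6 CPM in mature nuclei.

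CDH7, CDH13, CDH22 and CDH26 were highest in the mature cluster in each of the 4 libraries. CDH13 was at 15.6 ± 10.7 CPM in the RASGEF1B cluster and 335 ± 117 CPM in the mature one, where 19.2 to 34.0% of nuclei held a UMI of it at 1000 UMIs. CDH22 was at 3.58 ± 3.50 CPM in committing and 192 ± 43.1 CPM in mature nuclei, and CDH7 ranged from 18.3 to 43.5 CPM in committing and from 191 to 324 CPM in mature nuclei over the libraries. CDH26 was at 51.8 ± 14.8 CPM in the IL20RB cluster and 240.5 ± 63.0 CPM in mature nuclei.

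**Figure D3:**
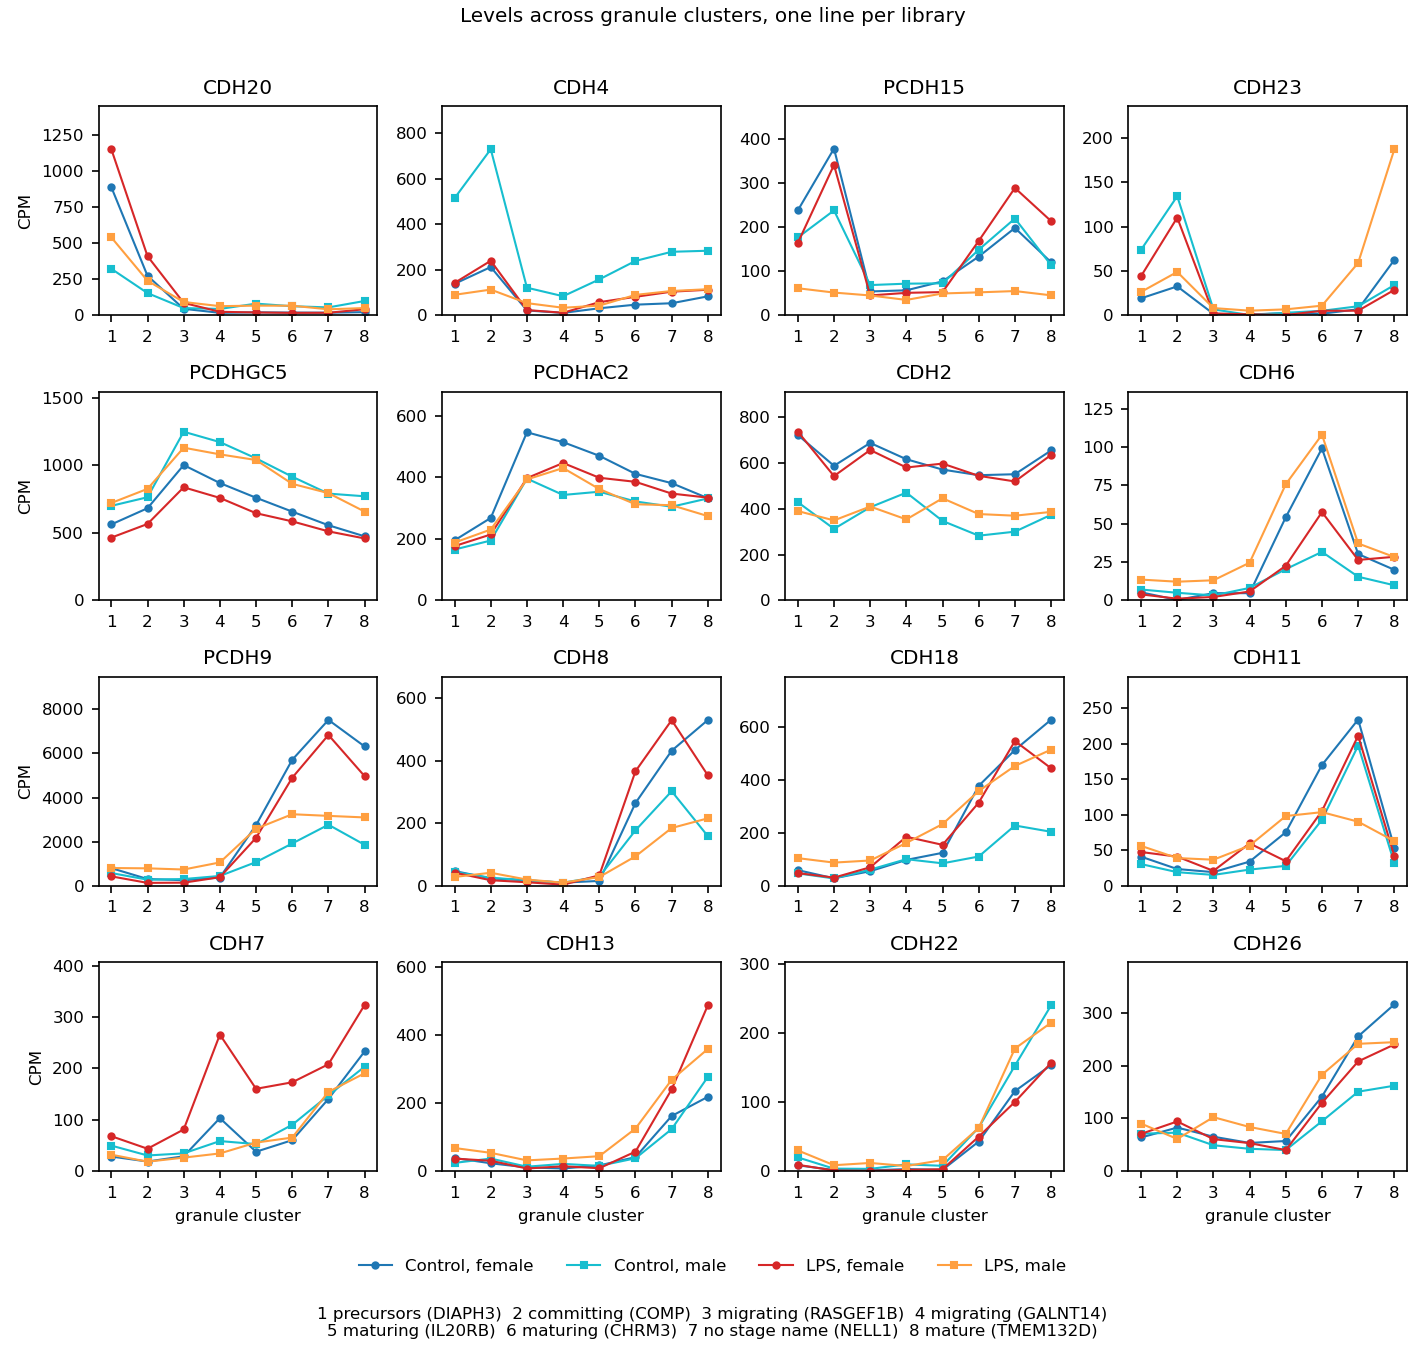
Level in CPM (vertical axes, from 0) of 16 genes across the 8 granule clusters (horizontal axes, numbered as in the key), with 1 line for each of the 4 libraries, circles for females and squares for males. CDH20 is highest in cluster 1, PCDHGC5 in cluster 3 and CDH6 in cluster 6, and CDH7, CDH13, CDH22 and CDH26 in cluster 8.

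Together the 43 genes took 0.758, 0.459, 0.656 and 0.599% of the granule lineage UMIs in the female control, male control, female LPS fetus and male LPS fetus. The LPS values lay between the Control values (exact two-sided permutation test, p = 1, where 2 fetuses against 2 cannot go below 0.333). The share was 0.307 ± 0.0343% in the RASGEF1B cluster and 0.906 ± 0.281% in the NELL1 cluster, and among classes it ran from 0.255 ± 0.110% in microglia to 1.30 ± 0.290% in the oligodendrocyte lineage. At 1000 UMIs the median granule nucleus held UMIs of 3 of the genes in each library (exact two-sided permutation test, p = 1), with 824 shallower nuclei left out. Equal medians fix that p, so nothing is read from it. The means were 3.24, 2.85, 3.11 and 3.40 in the female control, male control, female LPS fetus and male LPS fetus (exact two-sided permutation test, p = 0.667). Without thinning the medians were 7, 4, 6 and 6 in the same order.

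The comparison of LPS with Control asked which of these genes differed within a class after exposure. UMIs were summed per fetus and tested by the quasi-likelihood test of edgeR in the 12 classes and 8 granule clusters with at least 10 nuclei in every library, and the call needed an adjusted p below 0.1 with a log2 fold change beyond 0.25 in either direction. None of the 43 genes was called in 473 tests of 41 genes that passed the filter on low counts, and the background over all genes was 0.00% of 184475 tests. At an unadjusted p under 0.05 stood 12 of the tests of these genes (2.54%) and 875 of the tests of all genes (0.474%). Among the 12 are CDH23 in the oligodendrocyte lineage, CDH12 and CDH23 in molecular layer interneurons and CDH4 in endothelial stalk cells. Those tests passed the filter on low counts only through the group where the gene was high, so nothing is read from the share of the 43 genes. DESeq2 called none of the 43 genes, and 11 of all gene tests (0.00596%). With 2 fetuses in a group, the p-values measure the spread between these fetuses only.

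Both LPS libraries lay above both Control libraries in 55 tests of these genes (11.6%), against 9.33% of all gene tests, and below them in 36 (7.61%), against 8.32%. Granule clusters share nuclei with the lineage, and all classes share the 4 libraries, so these tests are not independent. The 12 tests at an unadjusted p under 0.05 covered 9 genes, 11 with higher and 1 with lower LPS values, and the male LPS fetus had the highest value in 8 of them. They include the tests, named above, that passed the filter only through the group where the gene was high, so nothing is read from these counts. Their adjusted p was 1.00, so they are given as values.

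CDH23 in the oligodendrocyte lineage had 2.35 and 0 CPM in the female and male control and 15.6 and 35.7 CPM in the female and male LPS fetus (log2 fold change 3.78 ± 1.05 SE). These were 2, 0, 9 and 29 UMIs, lowest in both controls. The gene passed the filter on low counts only through the LPS libraries, so nothing is read from its test. Of the 40 UMIs, 24 lay in cluster 5, the one with KCNIP4, and outside it the libraries held 2, 0, 5 and 9 UMIs. The part of cluster 5 in the difference was not tested.

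In molecular layer interneurons, CDH12 had 12.6 and 8.04 CPM in the female and male control and 34.7 and 67.6 CPM in the female and male LPS fetus (log2 fold change 2.15 ± 0.57 SE). CDH6 had 2.10, 18.1, 28.4 and 66.5 CPM and CDH23 1.05, 10.0, 22.1 and 24.8 CPM in the same order. All 3 genes were highest in the male LPS fetus, and the groups did not overlap. CDH12 and CDH23 passed the filter on low counts only through the LPS libraries, so nothing is read from their tests. Empty droplets were also highest in that library, with 3.60, 7.08, 2.57 and 18.3 CPM of CDH12, 28.1, 30.1, 17.3 and 43.1 CPM of CDH6 and 3.60, 10.6, 3.85 and 24.3 CPM of CDH23, but those of the female LPS fetus held less CDH12 and CDH6 than those of the female control. The part of free RNA was not tested.

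CDH18, CDH13, CDH7 and PCDH15 were picked for their counts of non-overlapping groups after these were seen. CDH18 was higher in LPS without overlap in 9 of 20 classes and clusters, the most of any of these genes, against 9.33% of all gene tests, and lower in none (8.32%). In microglia it had 45.0 and 23.4 CPM in the female and male control and 75.2 and 281 CPM in the female and male LPS fetus (log2 fold change 2.38 ± 0.78 SE), and in PAX2+ interneurons 89.5, 67.1, 111 and 204 CPM in the same order. The male LPS fetus stood highest in both. In the GALNT14 cluster it had 97.9, 101, 185 and 162 CPM, with the female LPS fetus highest (log2 fold change 0.83 ± 0.32 SE). In empty droplets CDH18 was at 155, 107, 101 and 372 CPM, again highest in the male LPS library but lower in the female LPS than in the female control library. The droplets were above microglia in every library. They were above PAX2+ interneurons and the GALNT14 cluster in all but the female LPS library. The part of free RNA in these values was not tested.

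CDH13 was higher in LPS without overlap in 6 of 19 (all gene tests 9.33%) and lower in 2 of 19 (all gene tests 8.32%). In the CHRM3 cluster it had 41.0 and 37.6 CPM in the female and male control and 57.1 and 125 CPM in the female and male LPS fetus (log2 fold change 1.17 ± 0.43 SE), and in the mature cluster 218, 277, 487 and 359 CPM in the same order (log2 fold change 0.80 ± 0.37 SE). Over the whole granule lineage the log2 fold change was 1.12 ± 0.43 SE. The male LPS fetus supplied most mature nuclei, as given above, and the part of this in the lineage value was not tested. Golgi cells lay the other way, with 1381, 1138, 866 and 491 CPM (log2 fold change -0.87 ± 0.62 SE), the last from 15 nuclei. Empty droplets held 41.1, 133, 39.2 and 179.6 CPM of CDH13, at or above the CHRM3 cluster in all but the female LPS library. They were below the mature cluster and Golgi cells in every library. The part of free RNA was not tested.

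CDH7 was higher in LPS without overlap in 8 of 17 (all gene tests 9.33%). In the oligodendrocyte lineage, its highest class, LPS was lower within each sex, with 415 and 189.7 CPM in the female and male control and 339 and 152 CPM in the female and male LPS fetus, and the groups overlapped (log2 fold change -0.34 ± 0.54 SE). In Bergmann glia it had 11.5, 12.5, 29.6 and 26.4 CPM in the same order (log2 fold change 1.23 ± 0.45 SE). CDH20 in the RASGEF1B cluster had 43.0, 48.1, 84.2 and 90.4 CPM in the same order (log2 fold change 0.94 ± 0.30 SE), and CDH11 in the committing cluster 23.5, 19.1, 41.0 and 39.0 CPM (log2 fold change 0.91 ± 0.36 SE). In these last 3 cases, in Bergmann glia and the 2 clusters, both LPS values were above both Control values. All 12 of these values were below the empty droplets of their own library, which held 62.0, 80.9, 69.4 and 121 CPM of CDH7, 155, 456, 121 and 297 CPM of CDH20 and 140.1, 136, 116 and 95.9 CPM of CDH11. Within each sex the droplets held more CDH7 but less CDH20 and CDH11 in LPS than in Control. The part of free RNA was not tested.

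PCDH15 was lower in LPS without overlap in 9 of 20, the most of any of these genes, against 8.32% of all gene tests, and higher in none (9.33%). In Purkinje cells it had 367 and 453 CPM in the female and male control and 195 and 23.6 CPM in the female and male LPS fetus (log2 fold change -1.77 ± 0.79 SE), from 228, 178, 90 and 3 UMIs, and the last value came from 17 nuclei. Without the female LPS fetus the log2 fold change was -4.21 ± 1.10 SE and passed the threshold (edgeR adjusted p = 0.0931), 1 of 184 calls (0.0963% of all gene tests), and the LPS side was then those 3 UMIs from 17 nuclei. In PAX2+ interneurons PCDH15 had 131, 170.3, 101 and 57.0 CPM and in microglia 144, 281, 109 and 64.8 CPM, lowest in the male LPS fetus in both. Empty droplets held 213, 398, 136 and 197 CPM of PCDH15, which is above the level of both of these classes in every library and higher in each Control library than in the LPS library of the same sex. The part of free RNA in these values was not tested. CDH4 in endothelial stalk cells had 65.6 and 84.0 CPM in the female and male control and 19.9 and 9.62 CPM in the female and male LPS fetus (log2 fold change -2.08 ± 0.65 SE), from 34, 18, 6 and 1 UMIs. It passed the filter on low counts there only through the Control libraries, so nothing is read from its test. Empty droplets held 54.8, 280.4, 34.0 and 83.7 CPM of CDH4, above the class in all libraries but that of the female control and again higher in Control within each sex, and the part of free RNA was not tested.

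**Figure D4:**
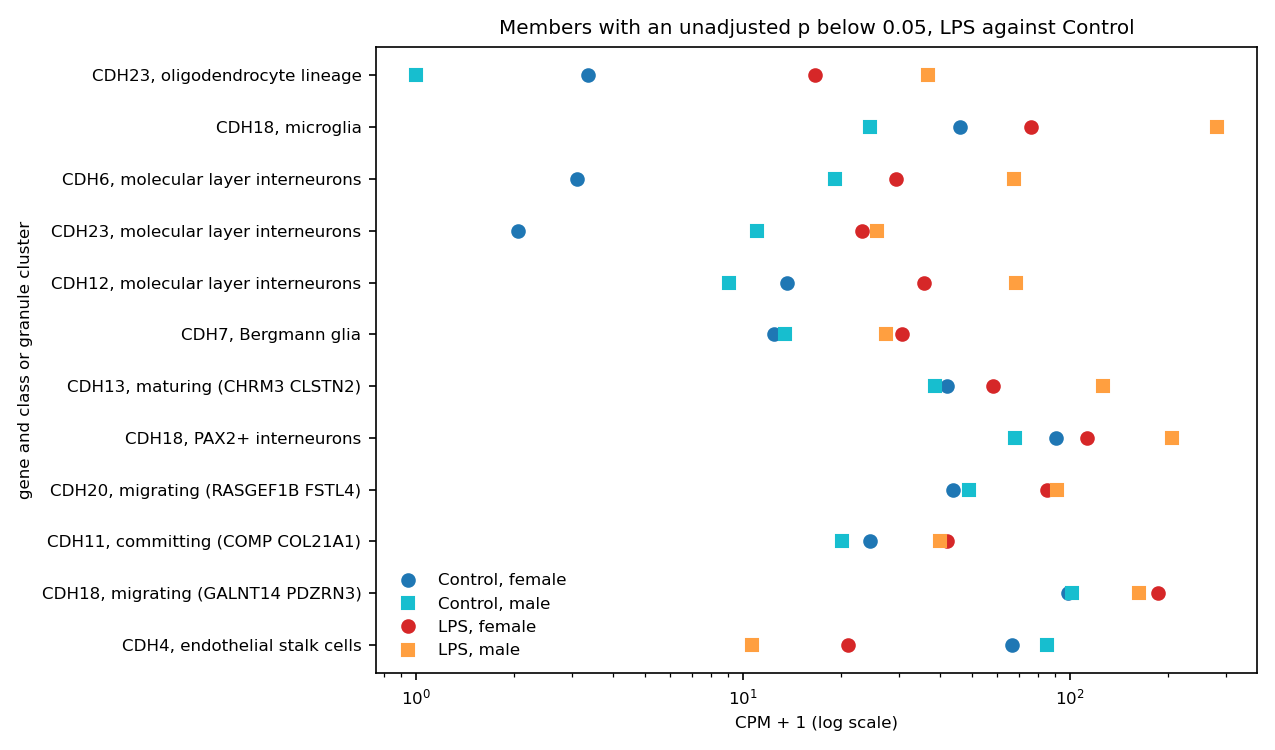
Level of each gene in each library (horizontal axis, CPM + 1 on a log scale) for the 12 tests with an unadjusted p under 0.05 (vertical axis), with circles for females and squares for males. The LPS points lie to the right of the Control points in 11 rows and to the left for CDH4 in endothelial stalk cells. That row, CDH23 in the oligodendrocyte lineage, and CDH12 and CDH23 in molecular layer interneurons passed the filter only through the higher group.

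In the class where each of the 27 genes was highest, 23 could be tested, and the log2 fold changes ran from -0.87 to 0.96. Both LPS values lay above both Control values in 1 of them (4.35%, against 9.33% of all gene tests) and below in 2 (8.70%, against 8.32%). These were CDH12 in Purkinje cells, above (log2 fold change 0.96 ± 0.67 SE), and CDH13 in Golgi cells and PCDHAC2 in PAX2+ interneurons (-0.23 ± 0.29 SE), below. With 23 tests, nothing is read from either share. Among the 20 with overlapping groups, the log2 fold change was -0.21 ± 0.86 SE for CDH4 in Golgi cells, -0.29 ± 0.60 SE for CDH10 in astrocytes and -0.36 ± 0.67 SE for CDH18 in Purkinje cells. In the oligodendrocyte lineage it was 0.086 ± 0.68 SE for PCDH9 and -0.060 ± 0.50 SE for CDH19, and in endothelial stalk cells 0.58 ± 0.42 SE for CDH5.

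The libraries separated more often by pairs of sex than by treatment. Both female libraries lay above both male ones in 154 of the tests of these genes (32.6%, against 24.9% of all gene tests) and below them in 129 (27.3%, against 37.1%). The genes that follow were picked for their counts after these were seen. CDH2 was higher in both females in 18 of 20 classes and clusters and PCDH17 in 15 of 17, against 24.9% of all gene tests. PCDHGC5 was lower in both females in 17 of 20, CDH4 in 14 of 20 and CDH22 in 12 of 13. CDH24 was lower in 14 of 16 and PCDHB4 in 12 of 18, against 37.1% of all gene tests.

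In Bergmann glia, CDH10 had 726 and 359 CPM in the female and male control and 663 and 276 CPM in the female and male LPS fetus, higher in both females. CDH8 had 393, 192, 404 and 213 CPM, PCDH17 224, 66.5, 176 and 48.7 CPM and PCDH9 5619, 2116, 5058 and 2621 CPM in the same order, with the females above the males in each. CDH4 lay the other way, with 999.9, 2529.8, 1155 and 1918 CPM. Sex, UMIs per nucleus and mitochondrial share divide the libraries in the same way and cannot be told apart. With sex as a block in the fit, 1 of the 43 genes was called, CDH23 in the oligodendrocyte lineage (log2 fold change 3.53 ± 0.87 SE, edgeR adjusted p = 0.0532). There CDH23 passed the filter on low counts only through the LPS libraries, as given above. The block called 53 of all gene tests (0.0287%), 19 of them in that class.

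**Figure D5:**
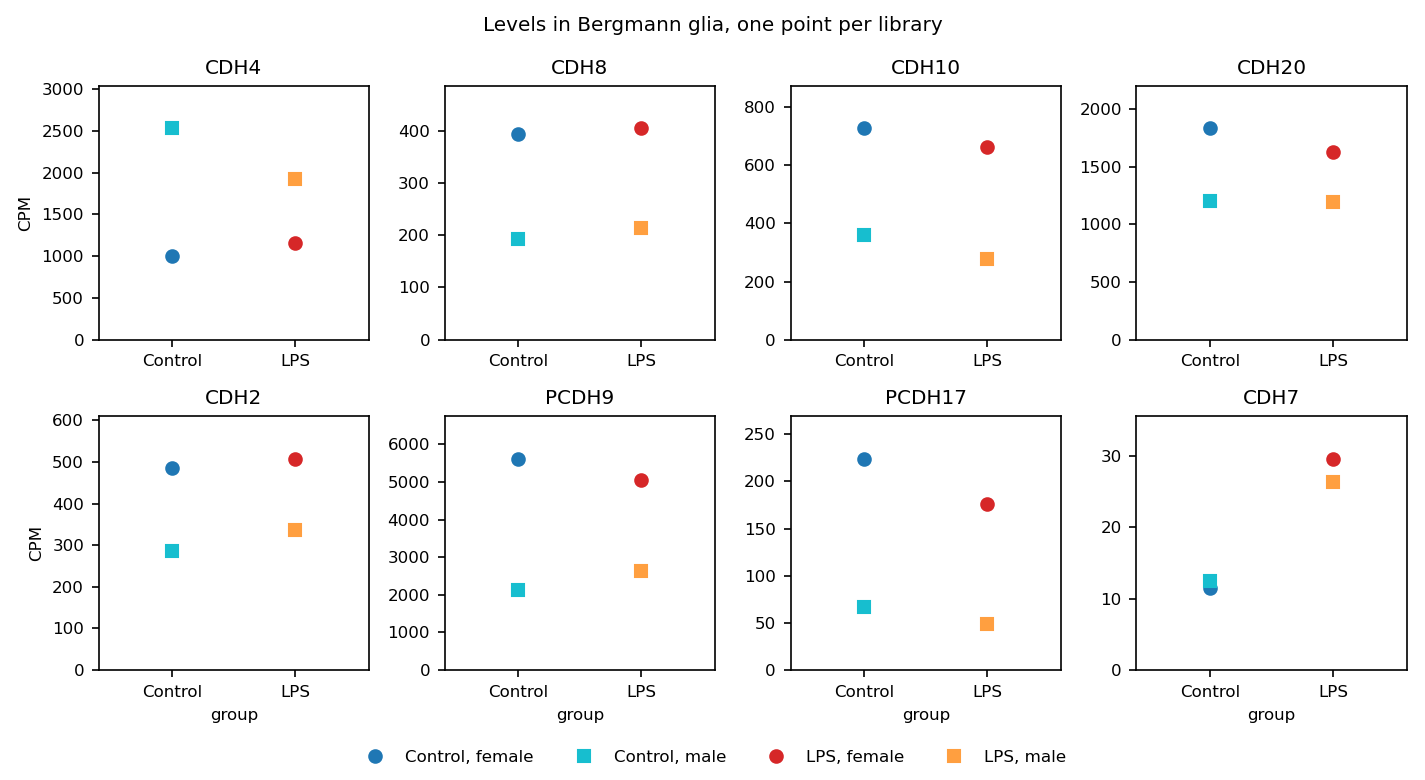
Level in CPM (vertical axes, from 0) of 8 genes in Bergmann glia by group (horizontal axes), with 1 point for each of the 4 libraries, circles for females and squares for males. CDH8, CDH10, PCDH9 and PCDH17 are higher in females and CDH4 is higher in males, while both LPS points of CDH7 lie above its Control points.

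Of 32 listed partners and relatives, among them catenins, the large FAT and CELSR cadherins and calsyntenins, none was called by edgeR in 512 tests, and 2 (0.391%, against 0.474% of the tests of all genes) had an unadjusted p under 0.05, both of CLSTN2, in molecular layer interneurons and the committing cluster. That share is under the share over all genes, and nothing is read from it. In the granule lineage, the log2 fold change was -0.0043 ± 0.48 SE for CTNNA2 and -0.041 ± 0.37 SE for CTNNB1, the alpha and beta catenins that tie cadherins to actin, and 0.096 ± 0.33 SE for CTNND2, a delta catenin of neurons. It was 0.029 ± 0.51 SE for CELSR2 and 1.18 ± 0.76 SE for FAT2, a cadherin of granule cells with 62.0 and 77.8 CPM in the female and male control and 52.9 and 261 CPM in the female and male LPS fetus, highest in the male LPS fetus.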

How the data were processed

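Cerebellar hemispheres of 4 fetuses were frozen, and nuclei were sequenced with a 10x 3′ kit, 1 library per fetus. The deposited values are raw UMI counts of all barcodes, which the authors made by mapping to Mmul_8.0.1 with introns included. The submitters' processing notes and the file headers name Cell Ranger 4, while the extract protocol and the study's methods name version 5.0, and which was used is not settled here. The correction for free RNA that the study's methods describe is not part of these counts.

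Nuclei were barcodes in which 500 genes or more were found and mitochondrial UMIs did not exceed 5%. They were clustered without the 43 genes in Seurat 5.3.0 (R 4.3.3). Doublets were called by Scrublet in scanpy 1.11.5, at 5.90 to 17.0% of a library, and kept. The caller's own threshold marked 0.0513% of the male LPS library, so the threshold of the female LPS library was used there. Empty droplets were barcodes ranked from 3 to 4 times the number of nuclei. UMIs were summed per fetus and class and tested with edgeR 4.0.16 (quasi-likelihood, TMM, filterByExpr, Benjamini-Hochberg over all genes of a class). On simulated data, the edgeR test recovered 0.0, 5.97 and 81.82% of changes of log2 fold 1, 2 and 4 in the granule lineage. In the same order it recovered 0.0, 20.9 and 75.76% in Purkinje cells and 7.46, 31.3 and 90.9% in Bergmann glia. Changes of the smaller sizes can thus go without a call. DESeq2 1.42.0, RLE factors, no filter, a sex block, at least 1000 genes, doublets removed and leaving out each fetus were alternatives. Exact permutation tests used scipy 1.17.1.

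The 43 genes, marker lists and partner list were chosen with earlier results of these data known. Genes were named at a mean of 50 CPM or more. For LPS against Control, the named genes were any called, the 5 with the largest log2 fold change without overlap in a class, and each gene in its leading class, and beyond these a few values were chosen after they were seen.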

Additional observations from a re-analysis of the deposited data

Results flagged for a closer look

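Of the 23 genes tested in their leading class, the female and male pairs of fetuses moved opposite ways between Control and LPS in 9. The share over all genes was not computed, so nothing is read from this count. The difference between the pairs was not tested, since each pair is 1 fetus against 1. On a log2(CPM + 1) scale, the change in females minus the change in males was -1.31 for CDH19, -0.79 for PCDH9 and -0.64 for PCDH10 in the oligodendrocyte lineage. In that class the male control had 5 nuclei in cluster 2 and 5 in cluster 5, and the male LPS fetus 58 and 32, against 13 and 9 in the female control and 9 and 6 in the female LPS fetus. PCDH9 was at 13269 ± 4053 CPM in cluster 2 and 4192 ± 1425 CPM in cluster 1, and the part of this shift in the 3 differences was not tested. Within cluster 1, PCDH9 had 6099, 2689, 4232 and 3748 CPM in the female control, male control, female LPS fetus and male LPS fetus. CDH19 had 70.3, 19.0, 67.0 and 176 CPM in the same order, so the pairs moved opposite ways there too for both genes. PCDH10 was higher in LPS in both pairs. In endothelial stalk cells the difference between the pairs was 1.18 for CDH5, -0.32 for CDH11 and -0.30 for CDH2. In fibroblasts it was -1.14 for PCDH19 and -0.88 for PCDH18, and in PAX2+ interneurons 0.50 for PCDHB4. CDH5 was higher in the LPS female than in the control female by 1.10, and lower in the LPS male than in the control male by 0.08.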

How the results depend on the processing

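Among the 43 genes, edgeR called none, and neither did DESeq2, RLE size factors, nuclei with at least 1000 genes or the removal of doublets. Without a filter on low counts 2 were called, both CDH10, in the IL20RB maturing and RASGEF1B migrating clusters. The share over all gene tests was not computed for that fit, so nothing is read from these 2. The sample labels tell fetuses apart by sex and carry no replicate number, so no pairing by number was made, and with sex as the block 1 was called, CDH23 in the oligodendrocyte lineage. Leaving out 1 fetus gave 0 to 2, with 2 each without the female control (CDH10 in the GALNT14 cluster, log2 fold change -2.55 against -1.64 with all 4 fetuses, and CDH4 in precursors, -2.07 against -1.44) and without the female LPS fetus (CDH23 in the oligodendrocyte lineage, 4.17 against 3.78, and PCDH15 in Purkinje cells, -4.21 against -1.77). The share over all gene tests was not computed for the fit without the female control. A group left with 1 fetus is also assumed to vary like the other, so nothing is read from the calls made without 1 fetus. Over all genes, 0 calls became 11 with DESeq2, 137 without the filter, 53 with the sex block, 1 without doublets and 146 to 308 when 1 fetus was left out. The difference in the share of granule UMIs, 0.0186 percentage points, ranged from -0.131 to 0.168 without 1 fetus, and the difference in median genes per nucleus, 0, was 0.5 without thinning.

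The log2 fold change of PCDH19 in fibroblasts, 0.0067, was -0.032 without the filter, -0.042 with the block and -0.015 without doublets. That of CDH19 in the oligodendrocyte lineage, -0.060, was 0.070 with the block, and that of CDH8 in precursors, -0.35, was 0.45 without doublets. The cause was not tested. Leaving out 1 fetus changed the sign of 20 log2 fold changes that had passed no threshold. The ranges were -1.13 to 0.46 for CDH7, -0.62 to 0.99 for CDH19, -0.42 to 0.84 for PCDH9, -0.81 to 0.35 for PCDH10, -1.35 to 0.0036 for PCDH15 and -1.52 to 0.90 for PCDH17 in the oligodendrocyte lineage. In endothelial stalk cells they were -0.39 to 0.72 for CDH2, -0.41 to 0.40 for CDH11, -0.068 to 0.68 for CDH20 and -0.28 to 1.13 for PCDH12. In Golgi cells they were -1.16 to 0.82 for CDH4 and -0.066 to 1.62 for CDH7, and in fibroblasts -0.68 to 0.25 for PCDH18 and -0.25 to 0.37 for PCDH19. They were -1.07 to 0.53 for CDH10 in astrocytes, -0.59 to 0.83 for CDH8 in Bergmann glia, -1.31 to 0.17 for CDH18 in Purkinje cells, -0.23 to 0.49 for CDH22 in molecular layer interneurons, -0.52 to 0.065 for PCDHB4 in PAX2+ interneurons and -0.00089 to 0.73 for CDH9 in the RASGEF1B cluster.

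With at least 1000 genes or doublets removed, levels of the 27 genes in their leading class moved by less than 1 SD. Leaving out 1 of 4 libraries cannot move a mean by 1 SD, so nothing is read from that alternative. With 2 fetuses in a group, depth and sex divided the libraries alike, and classes of few nuclei, such as 15 Golgi nuclei in the male LPS fetus, carry few UMIs.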
